A study of Mus musculus with 19 samples.

Results

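Hepatic transcript levels of 9 genes of methionine and one-carbon metabolism were examined in livers with and without the heterogeneous nuclear ribonucleoprotein RALY. The genes were taken by symbol from the deposited RNA-seq table (Mat1a, Gnmt, Ahcy, Bhmt, Bhmt2, Cbs, Cth, Pemt and Mthfd1), and all 9 were found among its 24054 gene rows. All mice were Raly flox/flox on a C57BL/6 background and were fed chow. L-RalyKO mice had received AAV8.TBG.Cre, an adeno-associated virus that expresses Cre recombinase from the hepatocyte promoter TBG and removes the loxP-flanked exons 3 and 4, and controls had received AAV8.TBG.GFP. Livers were taken 4 weeks after the virus, and 3 livers per group were analysed. The genotype label of the controls is wild type, although they carry the same floxed alleles. The study used males unless it stated otherwise, the ages of these mice were not given in the sources used here, and cells of the liver other than hepatocytes keep Raly in this model.

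In the liver, methionine is converted to S-adenosylmethionine (SAM), the methyl donor of the cell, by the enzyme that Mat1a encodes. Methyltransferases such as GNMT and PEMT use SAM and leave S-adenosylhomocysteine, which AHCY splits into adenosine and homocysteine. Homocysteine is either methylated back to methionine, by enzymes that take the methyl group from betaine, a related donor or folate, or passed through CBS and CTH to cysteine. The pathway also supplies methyl groups for phosphatidylcholine, the main phospholipid of lipoproteins, which links it to the lipid metabolism that the study addresses.

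Between 28302983 and 38052705 reads per liver were counted on genes, and the 9 genes held 343850 to 456256 of them per liver. A value is a gene's number of reads divided by the scaled size of its library, and gene length does not enter it. Groups were compared with limma on log2(value + 1) across the 11580 genes that averaged 1 or more, all 9 among them, with Benjamini-Hochberg adjustment, and differences are in log2 units, L-RalyKO over control, with their standard error (SE). Raly itself stood at 6.34, 6.61 and 7.39 in L-RalyKO and at 50.1, 48.6 and 46.8 in the controls, a difference of −2.67 ± 0.069 log2 units (SE, limma adjusted p = 6.92e-07).

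Over all tested genes, 6.55% had an adjusted p under 0.05 with limma, 6.31% with edgeR and 9.36% with DESeq2, and 22.7% had an unadjusted p under 0.05 with limma. No hepatocyte marker of the 8 examined had an adjusted p under 0.05 with limma or edgeR (2 had an unadjusted p under 0.05, and 2 had an adjusted p under 0.05 with DESeq2). Their summed value was between 105487 and 106794 in L-RalyKO and between 95783 and 104303 in control livers. Of 24 tested markers of other liver cells, 0 had an adjusted p under 0.05 with limma or edgeR, 1 (Sox9) did with DESeq2, and 2 had an unadjusted p under 0.05 with limma. The summed values of macrophage markers (161 to 209 against 156 to 234), endothelial markers (154 to 194 against 176 to 185), stellate cell markers (207 to 271 against 217 to 240) and cholangiocyte markers (32.3 to 41.2 against 32.6 to 34.8) overlapped between the groups, as did those of lymphocyte and neutrophil markers, and none of the markers listed was at 0 in all livers. Only 1 of 7 lymphocyte markers (Ptprc) and 0 of 4 neutrophil markers had values high enough to be tested, so these sums say little about those cells. Spp1 made up 73.8% to 86.2% of the cholangiocyte sum, and without it the groups did not overlap (6.93 to 8.55 in L-RalyKO against 4.76 to 6.02). Sox9 averaged 59.5% more in L-RalyKO, without overlap (adjusted p = 0.0774 with limma, from 0.0264 to 0.222 over 16 alternatives). Among zonation markers, Pck1 (adjusted p = 0.00312) and Cyp1a2 (0.0441) were higher and Lgr5 (0.0441) was lower in L-RalyKO liver (limma). Pck1 kept an adjusted p under 0.05 in all 16 alternatives. Cyp1a2 kept it in 8, with an adjusted p of up to 0.141, and lost it with edgeR (0.0522) and without L-RalyKO 1 or 3 or control 1 or 3. Lgr5 kept it in 6, with an adjusted p of up to 0.124, and lost it with edgeR (0.055) and without each liver but L-RalyKO 1. The 8 periportal markers summed to between 79058 and 80144 in L-RalyKO and between 69930 and 78090 in control livers, and the 8 pericentral markers to between 11749 and 12808 against 10737 to 11733. Alb, which is in both the hepatocyte and the periportal list, made up 66.3% to 68.9% of the former and 88.3% to 92.1% of the latter sum. Without Alb the groups did not overlap in the hepatocyte sum (35119 to 36009 in L-RalyKO against 31924 to 33276) or in the periportal sum (8967 to 9359 against 6072 to 7356). They overlapped in the periportal sum without Pck1 (73657 to 74816 against 66937 to 75153) and in the pericentral sum without Cyp1a2 (10998 to 11996 against 10245 to 11254). Most of the pericentral sum was Cyp2e1 (9208 to 9898 in L-RalyKO against 8298 to 9347 in control livers). Of the hepatocyte markers, Apoa1 averaged 20.6% and Cps1 24.9% more in L-RalyKO than in control livers, each without overlap (adjusted p of 0.141 and 0.0845, limma). Serpina1c (6.90% higher) and Fgb (10.05% higher) did not overlap either, nor did Apoa2, which lay 11.7% lower in the mean (adjusted p = 0.228, limma), and Alb, Ttr and Tat overlapped. The part of the hepatocyte, zonation and cholangiocyte markers in the results below was not tested. In whole liver, fewer cells of a type and less RNA per cell cannot be told apart.

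Of the 9 genes, 1 rose, 0 fell and 8 did not pass the test in L-RalyKO liver, where 6.55% of all tested genes had an adjusted p under 0.05 (3.36% higher and 3.19% lower). Bhmt2 was the gene that rose. At an unadjusted p under 0.05 there were 4 genes, Mat1a, Ahcy and Bhmt2 with higher and Cbs with lower values, against 22.7% of all tested genes. The values of Mat1a, Ahcy, Bhmt2 and Pemt did not overlap between the groups, with L-RalyKO higher in each, against 28.1% of all tested genes that did not overlap in either direction and 14.4% that did not overlap with L-RalyKO higher. The log2 fold changes lay between −0.23 and 0.21 with a median of 0.11, and the median of all tested genes was 0.0044. With DESeq2 on the recovered reads 2 of the 9 had an adjusted p under 0.05 (Bhmt2 and Ahcy), where 9.36% of genes did, and with edgeR 1 did (Bhmt2), where 6.31% of genes did.

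**Figure D1:**
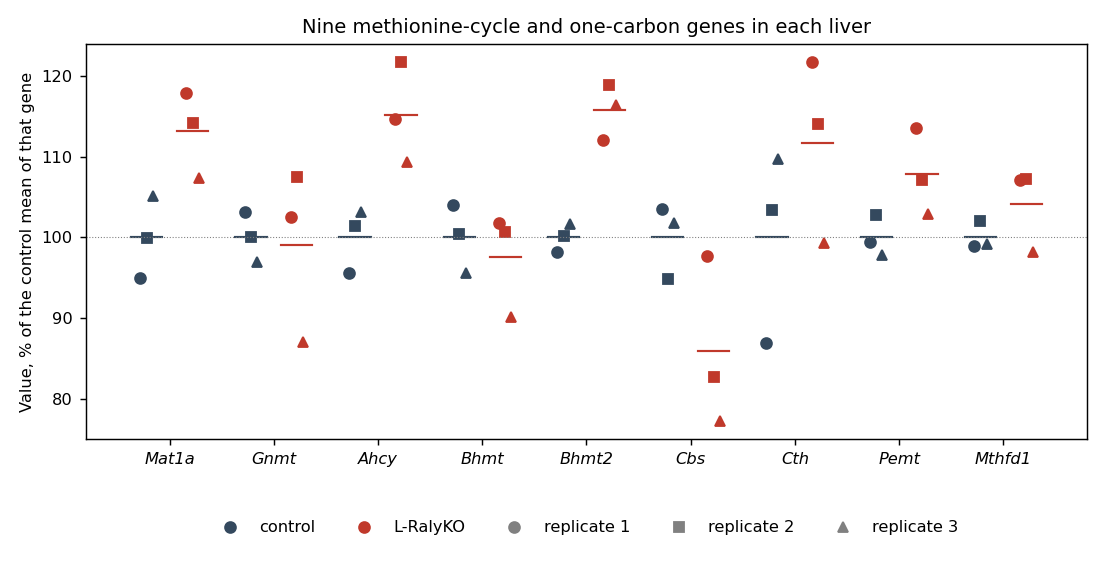
Value of each of the 9 genes in each liver as a percentage of that gene's control mean (vertical axis), with controls in dark blue and L-RalyKO in red, 1 symbol shape per replicate number and lines at the group means. The L-RalyKO points of Mat1a, Ahcy, Bhmt2 and Pemt lie above all control points of the same gene, and those of Cbs lie below all controls in L-RalyKO 2 and 3.

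Sequence copies limit the values of 2 genes. Of the 31-base words in the transcripts of Ahcy, 78.7% also occur elsewhere in the NCBIM37 genome, as do 75.1% of those of Bhmt, 15.1% of those of Bhmt2, 4.99% of those of Cth and 1.70% of those of Pemt. Mat1a, Gnmt, Cbs and Mthfd1 had 0 such words. Bhmt and Bhmt2 share 40 words. How reads with several placements were counted is not given in the sources used here, so the values of Ahcy and Bhmt are uncertain. Of the 9 genes, Bhmt alone shares exonic bases with an annotated gene of the opposite strand (187 bases with Gm15622).

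Mat1a encodes the catalytic subunit of the adult liver's methionine adenosyltransferases, which make SAM. It maps to chromosome 14 (41918670 to 41937701, + strand, NCBIM37, the build named mm9, GENCODE vM1, ENSMUSG00000037798.6), with 9 exons. Its values were 4005, 3879 and 3648 in the L-RalyKO livers and 3226, 3395 and 3573 in the controls. Every L-RalyKO liver was above every control, and the lowest of them exceeded the highest control by little. The mean was 3844 ± 181 against 3398 ± 173 (SD, n = 3 each), a difference of 0.18 ± 0.073 log2 units (SE, 95% interval 0.011 to 0.35). The adjusted p was 0.194 (limma), and the two-sided exact permutation test gave p = 0.1, the smallest that 3 livers against 3 allow.

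Gnmt encodes glycine N-methyltransferase, which disposes of excess SAM by methylating glycine. It is a short gene of chromosome 17 (46862613 to 46866117, − strand). The values were 1412, 1481 and 1199 in L-RalyKO and 1420, 1378 and 1335 in control livers. The L-RalyKO livers spanned the whole range of the controls, with the highest and the lowest value of the 6. Their mean was 1364 ± 147 against 1378 ± 42.7 (SD, n = 3 each). The log2 difference was −0.02 (95% interval −0.21 to 0.17, limma adjusted p = 0.921), an interval that leaves room for a change of either sign.

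Pemt encodes phosphatidylethanolamine N-methyltransferase, which makes phosphatidylcholine with 3 methyl groups from SAM. It maps to chromosome 11 (59784116 to 59859991, − strand). The values were 189, 179 and 171.4 in L-RalyKO and 165.7, 171.3 and 163.1 in control livers. The groups did not overlap, but the lowest L-RalyKO liver and the highest control were nearly equal. The difference was 0.11 ± 0.051 log2 units (SE, 95% interval −0.0098 to 0.22, limma adjusted p = 0.26; exact permutation p = 0.1).

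Ahcy encodes the hydrolase that removes S-adenosylhomocysteine, an inhibitor of methyltransferases. Its values were 2990, 3176 and 2852 in L-RalyKO and 2492, 2645 and 2691 in control livers. All L-RalyKO livers were above all controls. The mean was 3006 ± 163 against 2609 ± 104 (SD, n = 3 each), and the difference was 0.20 ± 0.07 log2 units (SE, 95% interval 0.045 to 0.36). The adjusted p was 0.123 with limma, 0.121 with edgeR and 0.0245 with DESeq2, and over the 16 alternatives it ranged from 0.0245 to 0.292.

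Ahcy is also a neighbour of the deleted gene. Raly occupies 154616832 to 154692997 of chromosome 2 (+ strand) and Ahcy 154885046 to 154900233 (− strand), with 192048 bases between them. The annotated protein-coding genes wholly within that gap are Eif2s2, which encodes a subunit of a translation initiation factor, and Gm14226, which has no row in the table. The agouti gene (symbol a) starts within Raly and ends before Ahcy, shares 147 exonic bases with Raly, and had 0 reads in all 6 livers. Eif2s2 averaged 76.1 ± 0.744 after Raly deletion and 79.2 ± 1.66 in controls (SD, n = 3 each), with no overlap and a difference of −0.06 (limma adjusted p = 0.495). The next annotated gene beyond Ahcy, 2310005A03Rik, which is a processed transcript, had values of 0.756, 0.522 and 0.763 in L-RalyKO and of 0.328, 0.386 and 0.324 in control livers (11 to 29 reads), too low to be tested. The next protein-coding gene is Itch, which encodes a ubiquitin ligase, from 154959245 to 155052591, a gene named after its values were seen. Itch rose from 80.1 ± 4.64 in controls to 99.4 ± 4.97 in L-RalyKO livers (SD, n = 3 each), a difference of 0.31 ± 0.06 log2 units (SE, limma adjusted p = 0.0206). It lost the call without the intensity trend and in 4 of the 6 fits that left out 1 liver each (L-RalyKO 1 or 3, or control 1 or 2), and its adjusted p ranged from 0.00109 to 0.0837 over 16 alternatives. The protein-coding gene after it, Dynlrb1, differed by −0.13 log2 units (limma adjusted p = 0.339). Both groups carry the floxed allele, and the part of the position next to Raly in these values was not tested.

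**Figure D2:**
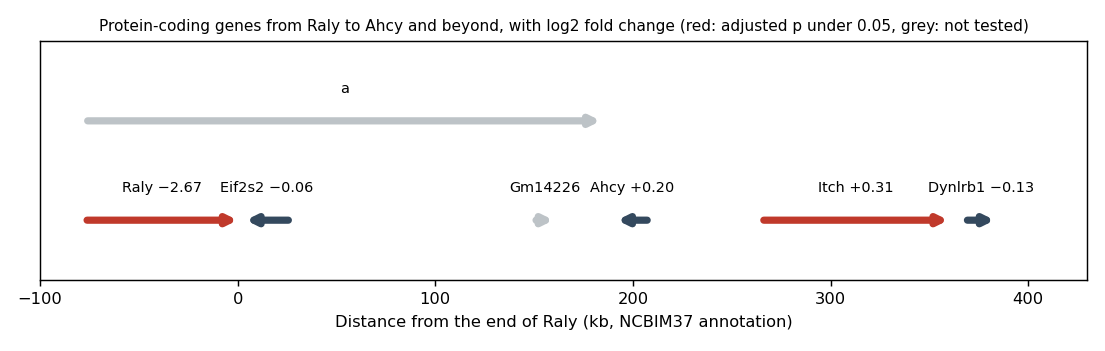
Protein-coding genes around Raly and Ahcy drawn to scale as arrows in the direction of transcription, by distance in kb from the end of Raly (horizontal axis), with the log2 fold change of each tested gene. Ahcy, separated from Raly by 192048 bases, has a log2 fold change of 0.20, Eif2s2 between them has −0.06 and Itch beyond Ahcy has 0.31.

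Bhmt and Bhmt2 encode enzymes that methylate homocysteine without folate, the former with betaine and the latter with S-methylmethionine. The genes are neighbours on chromosome 13, both on the − strand, Bhmt from 94386846 to 94407916 and Bhmt2 from 94425675 to 94444257, and 17758 bases separate them. Bhmt2 had values of 234.6, 249.04 and 244 in L-RalyKO and of 206, 209.9 and 213 in control livers. The 3 L-RalyKO livers stood clearly above the 3 controls, and both groups were narrow. The mean rose from 209 ± 3.65 to 242 ± 7.31 (SD, n = 3 each), 15.8% higher, with a difference of 0.21 ± 0.045 log2 units (SE, 95% interval 0.11 to 0.31, limma adjusted p = 0.0319; exact permutation p = 0.1). The call was also made by edgeR (adjusted p = 0.0277) and DESeq2 (0.00787), both on recovered reads. It was lost with total count scaling (limma adjusted p = 0.0679) and without the intensity trend (0.0783). Leaving out 1 liver gave an adjusted p of 0.0669 without L-RalyKO 1, 0.0972 without L-RalyKO 2, 0.0814 without L-RalyKO 3, 0.1001 without control 1 and 0.0777 without control 2 (limma), and 0.0421 without control 3. The adjusted p thus ranged from 0.00787 to 0.1001, and the difference lay between 0.18 and 0.23 log2 units in all 16 alternatives.

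Bhmt had values of 3384, 3348 and 2998 in L-RalyKO and of 3461, 3339 and 3180 in control livers. The groups overlapped, and the lowest value was that of L-RalyKO 3. The difference was −0.04 ± 0.075 log2 units (SE, 95% interval −0.21 to 0.13, limma adjusted p = 0.819). The ratio of Bhmt2 to Bhmt, each per kb of exon, does not depend on how libraries were scaled. It was 0.156, 0.167 and 0.183 in L-RalyKO and 0.133, 0.141 and 0.1503 in control livers, without overlap. This ratio and 3 others were chosen after the values were seen and carry no test.

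The promoters of the 2 neighbours are shown because 1 of the genes passed the test and the other did not. Bhmt2 also starts head to head with Dmgdh, which begins at 94444388 on the + strand, just beyond the start of Bhmt2 at 94444257 (NCBIM37). Dmgdh did not pass the test (log2 fold change 0.07, limma adjusted p = 0.556). The window printed for Bhmt2 thus lies where both genes start, and how far it reaches into Dmgdh was not examined. Each line gives the 250 bases before the start site (RefSeq, GRCm38.p6), and capitals mark CCAAT, searched on both strands (ATTGG on the printed strand when reversed), the core letters recognised by NFY, a transcription factor that the study examined. The window of Bhmt is chr13:93637759-93638008 on the − strand and that of Bhmt2 is chr13:93674303-93674552 on the − strand.
Bhmt: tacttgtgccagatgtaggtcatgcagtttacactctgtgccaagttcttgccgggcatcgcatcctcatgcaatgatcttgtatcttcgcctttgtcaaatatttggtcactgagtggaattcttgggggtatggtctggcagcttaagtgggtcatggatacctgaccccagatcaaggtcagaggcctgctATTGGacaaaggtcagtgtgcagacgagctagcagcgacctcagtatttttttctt
Bhmt2: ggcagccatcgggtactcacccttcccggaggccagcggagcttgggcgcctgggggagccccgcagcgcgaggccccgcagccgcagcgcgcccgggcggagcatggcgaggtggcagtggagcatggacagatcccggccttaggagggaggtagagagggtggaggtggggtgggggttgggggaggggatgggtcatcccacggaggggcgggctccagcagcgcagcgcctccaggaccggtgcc
Bhmt had the letters once, beginning 56 bases before the start site, in a window with 48% G and C. Bhmt2 had no match, in a window with 74% G and C. Of the 9 genes, 7 had a window in the RefSeq table, and 6 of these (Ahcy, Bhmt, Cbs, Gnmt, Mthfd1 and 1 of the 2 windows of Pemt) held CCAAT, while 33.8% of all 32851 windows and 37.5% of all genes with a window did. The match lay 62 bases before the start in Gnmt, 69 in Mthfd1, 237 in Ahcy and 248 in Pemt. The E-box letters CACGTG (the same on both strands) were in Cbs alone and in 6.02% of all windows, and TTGCATCA, searched on both strands, was in 0 of the 7 genes and in 0.791% of all windows. These are matches of letters and not sites of binding.

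Cbs encodes cystathionine beta-synthase, which commits homocysteine to transsulfuration. It maps to chromosome 17 (31749568 to 31774144, − strand). The values were 335, 284 and 265 in L-RalyKO and 355, 325 and 349 in control livers. L-RalyKO 2 and 3 were below every control, while L-RalyKO 1 was above control 2. The mean was 294 ± 36.2 against 343 ± 15.8 (SD, n = 3 each). The difference was −0.23 ± 0.084 log2 units (SE, 95% interval −0.42 to −0.033), the lowest of the 9 genes, with an adjusted p of 0.155 (limma; exact permutation p = 0.2). Without L-RalyKO 1 it was −0.32 with an adjusted p of 0.0484 (limma), and over the 16 alternatives the adjusted p ranged from 0.0484 to 0.349. The promoter window of Cbs (chr17:31637206-31637455, − strand, GRCm38.p6) is shown as that of the gene with the lowest fold change, and it held CCAAT on each strand, beginning 52 and 15 bases before the start site.
Cbs: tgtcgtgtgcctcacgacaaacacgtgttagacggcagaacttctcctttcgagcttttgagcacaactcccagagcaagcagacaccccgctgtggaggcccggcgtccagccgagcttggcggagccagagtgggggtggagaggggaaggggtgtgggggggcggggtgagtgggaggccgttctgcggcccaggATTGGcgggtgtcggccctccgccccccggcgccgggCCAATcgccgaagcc

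Cth encodes cystathionine gamma-lyase, which releases cysteine from the product of CBS. It maps to chromosome 3 (157557212 to 157588041, − strand). The values were 395, 371 and 323 in L-RalyKO and 282, 336 and 357 in control livers, with L-RalyKO 3 within the range of the controls. The difference was 0.16 ± 0.0997 log2 units (SE, 95% interval −0.067 to 0.39, limma adjusted p = 0.385), and the controls spread more widely, relative to their mean, than those of any other of the 9 genes. Cbs and Cth, which act in sequence, thus had fold changes of opposite sign, and neither passed the test. The ratio of Cth to Cbs, each per kb of exon, was 1.75, 1.93 and 1.801 in L-RalyKO and 1.18, 1.53 and 1.51 in control livers. The groups did not overlap in this ratio, the mean of which was 1.83 ± 0.0951 against 1.41 ± 0.198 (SD, n = 3 each). The ratio of Ahcy to Gnmt did not overlap either (0.911, 0.922 and 1.02 against 0.755, 0.825 and 0.867), whereas that of Mat1a to Mat2a, the form of other tissues, did (58.9, 53.9 and 39.5 against 34.2, 39.2 and 39.9).

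**Figure D3:**
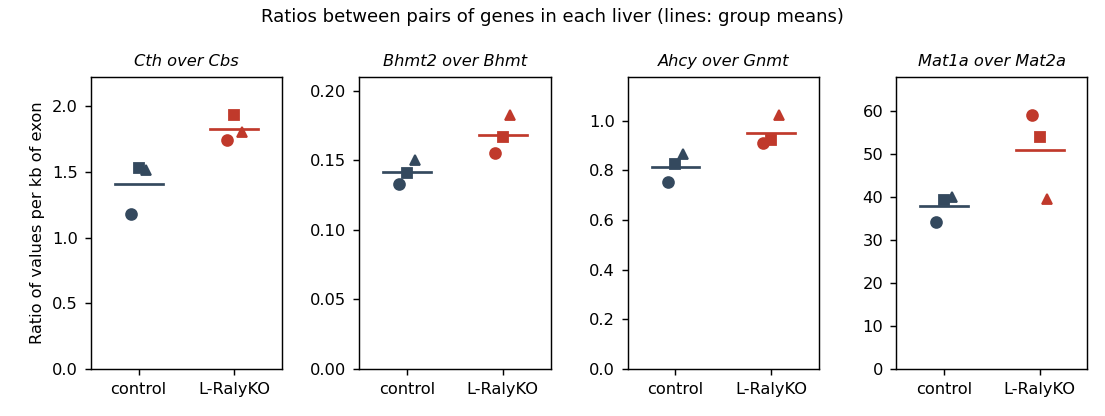
Ratios of values per kb of exon between 4 pairs of genes in each liver (vertical axes from 0), controls in dark blue and L-RalyKO in red, with 1 symbol shape per replicate number and lines at the group means. The first 3 ratios do not overlap between the groups, and in the fourth L-RalyKO 3, at 39.5, lies among the controls.

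Mthfd1 encodes the cytosolic enzyme that interconverts folate-bound one-carbon units. It maps to chromosome 12 (77356219 to 77420807, + strand), with 28 exons. Its values were 271, 271 and 248 in L-RalyKO and 250.2, 258 and 250.8 in control livers, which overlapped. The difference was 0.06 ± 0.051 log2 units (SE, 95% interval −0.058 to 0.17, limma adjusted p = 0.552). Its interval, with that of Pemt and that of Bhmt2, was among the narrowest of the 9.

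**Figure D4:**
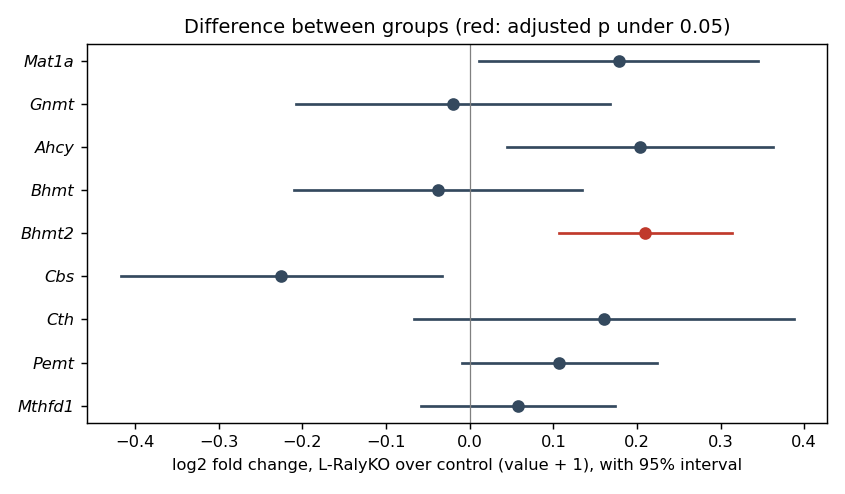
Log2 fold change of the 9 genes, L-RalyKO over control on the log2(value + 1) scale (horizontal axis), with points for the estimate and lines for the 95% interval from limma. The interval of Bhmt2, in red, runs from 0.11 to 0.31, and those of Mat1a, Ahcy and Cbs, which did not pass after adjustment, also leave out 0.

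Across the 9 genes, L-RalyKO 3 had the lowest value of its group in 8 of the 9 genes (all but Bhmt2), where it was the lowest in 37.9% of all tested genes, and the summed value of the 9 was 11947 in it against 13216 and 13237 in L-RalyKO 1 and 2. The control livers had sums of 11858, 12057 and 12110. Among controls, control 1 was the lowest in 5 genes (Mat1a, Ahcy, Bhmt2, Cth and Mthfd1), where it was the lowest in 32.4% of all tested genes. It was the highest in 3 (Gnmt, Bhmt and Cbs). Without L-RalyKO 3 the log2 fold changes of Gnmt and Bhmt changed sign (0.07 and 0.018), and without control 1 that of Gnmt did (0.0021). Over the 6 livers, Pearson's r of log2 values was 0.93 between Mat1a and Ahcy, 0.92 between Ahcy and Bhmt2 and 0.91 between Gnmt and Bhmt, and it was −0.82 between Bhmt2 and Cbs. These 6 points share libraries and the difference between groups, and r is given as a description. Among 7422 genes that averaged 10 or more, the most similar by the same measure were Jade2 for Bhmt2 (r = 0.997), Mov10 for Mat1a (0.998), Bach1 for Ahcy (0.996) and Mocos for Cbs (0.987).

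Per kb of exon, so that genes can be compared, the control level was 1142 ± 35.4 for Gnmt, 1059 ± 54.1 for Mat1a, 930.2 ± 37 for Ahcy and 600.3 ± 25.4 for Bhmt (SD, n = 3 each). The other 5 were far lower, with 144 ± 16.9 for Cth, 103 ± 4.72 for Cbs, 84.9 ± 1.48 for Bhmt2, 79.2 ± 1.98 for Pemt and 76.1 ± 1.30 for Mthfd1 (SD, n = 3 each). Of the neighbours in this order, the control livers of Gnmt and Mat1a overlapped, as did those of Pemt and Mthfd1, and the other neighbours did not. In L-RalyKO liver Mat1a (1198 ± 56.5) came before Gnmt (1131 ± 122) and Bhmt2 (98.3 ± 2.96) before Cbs (88.0 ± 10.8, SD, n = 3 each), both pairs with overlap. The order rests on the length used. With the longest protein-coding transcript, Bhmt came first in controls (1463 ± 61.9) and Pemt came sixth (166 ± 4.15, SD, n = 3 each).

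Around the 9 genes, 81 further genes of the same metabolism were examined in 8 groups, and 77 of them were tested. Of these, 3 rose, 1 fell and 73 did not pass the test, or 5.19% called against 6.55% of all tested genes. The median log2 fold change of the 77 was −0.00077, against 0.0044 over all tested genes. Their unadjusted p was under 0.05 in 16.9%, against 22.7%.

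Of 12 genes of the choline and betaine group, 2 rose (6.55% of all tested genes changed in either direction). An unadjusted p under 0.05 was found in 4 of the 12, against 22.7% of all tested genes (limma). The 2 that rose were a choline kinase and an ethanolamine kinase, which open the routes to the main phospholipids. Chka, which encodes choline kinase alpha, had values of 11.2, 11.4 and 14.0 in L-RalyKO and of 7.30, 6.77 and 6.73 in control livers, with a difference of 0.73 ± 0.093 log2 units (SE, limma adjusted p = 0.00394). Etnk2, which encodes an ethanolamine kinase, had values of 439, 414 and 416 against 339, 349 and 346, with a difference of 0.29 ± 0.047 log2 units (SE, limma adjusted p = 0.00995). In neither gene did the groups overlap. Their paralogs Chkb (log2 fold change −0.06, adjusted p = 0.601) and Etnk1 (−0.12, adjusted p = 0.25) did not pass the test (limma). The other 8 genes of the choline and betaine group had log2 fold changes between −0.22 and 0.07, with Chdh, the first enzyme of betaine synthesis, at −0.18 (limma adjusted p = 0.156) and the enzymes downstream of betaine, Dmgdh and Sardh, at 0.07 (0.556) and 0.03 (0.839).

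Of 7 small-molecule methyltransferases that use SAM, 1 rose (6.55% of all tested genes changed in either direction). Nnmt, which encodes nicotinamide N-methyltransferase, had values of 91.8, 93.7 and 85.5 in L-RalyKO and of 57.2, 63.5 and 67.1 in control livers. All L-RalyKO livers were above all controls, 44.3% higher in the mean, with a difference of 0.52 ± 0.068 log2 units (SE, limma adjusted p = 0.00424). Chka, Etnk2 and Nnmt had an adjusted p under 0.05 in all 16 alternatives.

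Of 15 tested folate genes, 0 passed the test with limma, edgeR or DESeq2, against 6.55%, 6.31% and 9.36% of all tested genes, and 1 had an unadjusted p under 0.05, against 22.7% (limma). Tyms, which encodes thymidylate synthase, differed in log2 units by −0.00077 (limma adjusted p = 0.994). Shmt1, Shmt2 and Aldh1l1, which move one-carbon units on and off folate, had log2 fold changes of −0.12, −0.06 and 0.14, with adjusted p of 0.386, 0.529 and 0.294 (limma), and Mthfd2, with a mean value under 1, was not tested. Of 4 genes of the glycine cleavage system, which feeds one-carbon units into folate, 1 fell. Amt, its aminomethyltransferase, had values of 21.6, 21.8 and 19.3 in L-RalyKO and of 25.9, 24.9 and 24.8 in control livers, a difference of −0.26 ± 0.064 log2 units (SE, limma adjusted p = 0.0484). The other 3 lay between −0.05 and 0.05. Amt lost its call with all genes that had a read (adjusted p = 0.0765, limma), without the intensity trend (0.0731), with a replicate block (0.063) and without each of the 6 livers in turn (0.0747 to 0.148), over a range of 0.0342 to 0.148.

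In the other 4 groups no gene passed the test with limma or edgeR, where over all tested genes 6.55% and 6.31% did, 9.36% did with DESeq2 and 22.7% had an unadjusted p under 0.05. These were the other genes of the methionine cycle (0 of 7, 2 at an unadjusted p under 0.05, 0 with DESeq2), transsulfuration and cysteine use (0 of 12, 2 at an unadjusted p under 0.05, 1 with DESeq2), vitamin cofactors (0 of 9, 1 at an unadjusted p under 0.05, 0 with DESeq2) and polyamine and methionine salvage (0 of 11, 1 at an unadjusted p under 0.05, 0 with DESeq2). In the methionine cycle, Mat2a had values of 71.8, 76.0 and 97.5 in L-RalyKO and of 99.6, 91.5 and 94.7 in control livers, a log2 difference of −0.23 (limma adjusted p = 0.23). L-RalyKO 3 lay among the controls, and without it the log2 fold change was −0.36 with an adjusted p of 0.022 (range over 16 alternatives 0.022 to 0.518, limma). Mtr, the folate-dependent methionine synthase, differed in log2 units by −0.14 (limma adjusted p = 0.325). Cdo1, which encodes the dioxygenase that begins the breakdown of cysteine, differed by 0.02 log2 units (limma adjusted p = 0.895).

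**Figure D5:**
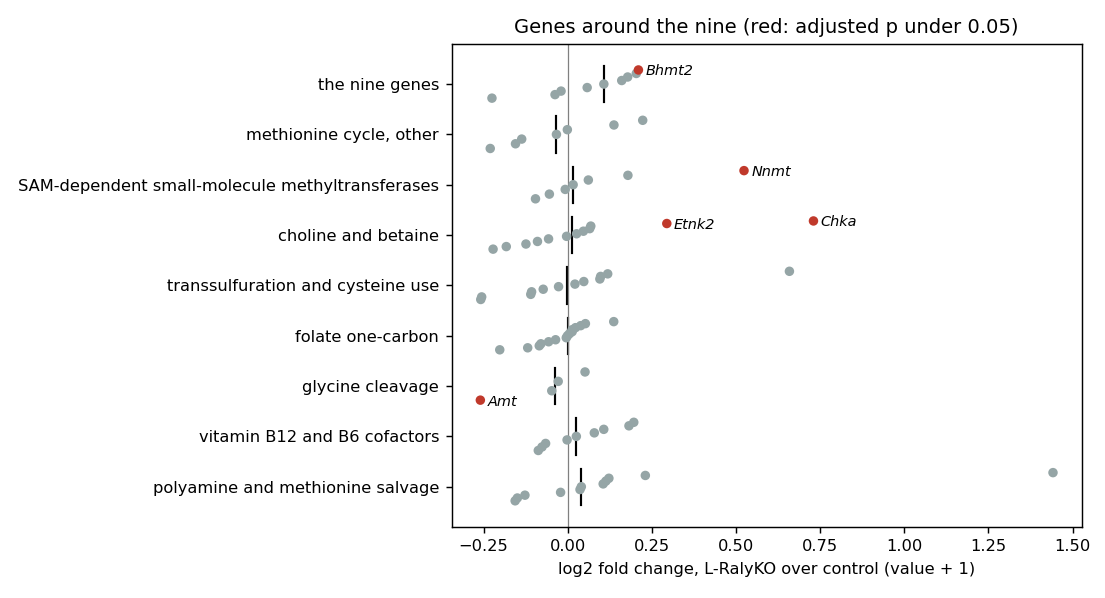
Log2 fold change, L-RalyKO over control (horizontal axis), of the 86 tested genes in the 9 groups of methionine and one-carbon metabolism (rows), with 1 point per gene, a black bar at each group's median and genes with an adjusted p under 0.05 in red with their names. Bhmt2, Nnmt, Etnk2 and Chka are to the right of 0 and Amt is to the left, and the medians of the groups lie between −0.04 and 0.11.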

How the data were processed

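RNA-seq of 3 L-RalyKO and 3 control livers was analysed. The study describes more livers per group than these, and the others were not analysed here. The other 13 samples of the series (ATAC-seq and ChIP-seq) were not analysed here. The study's methods give a stranded kit, TopHat v2.0.2 on mm9, Cufflinks v2.0.2 and Cuffdiff. They do not describe the values the authors deposited, a normalized signal of reads per gene divided by each library's scaled size. In each library 100% of values were whole multiples of the smallest (within 1e-06 of a read), which gave the reads, and the scaling factors equalled edgeR's TMM factors. Because the values are not counts, limma 3.58.1 (R 4.3.3) with an intensity trend was run on log2(value + 1), as the design stated, and 758 genes had an adjusted p under 0.05. EdgeR 4.0.16 on recovered reads called 731 and DESeq2 1.42.0 called 1084. The limma fit was tested on simulated data of 11570 genes. There it recovered 52 of 65 genes changed 1.5-fold, 65 of 66 changed 2-fold and 66 of 66 changed 4-fold. Of its calls 3.17% were false. The simulation gave every gene the same relative variability between livers and held no change under 1.5-fold. The log2 fold changes of the 9 genes, −0.23 to 0.21, were smaller than that, so how often such changes are recovered was not tested. Sums of markers without single genes were added after seeing the data. Columns were matched to samples by virus and replicate number. Nothing but those numbers pairs the livers. The p-values rest on the spread between these livers, which limma adjusts for each gene toward that of genes of similar level. In these libraries 3 reads amount to a value of 0.0789 to 0.105. Whether the number of livers or the depth limits the precision more was not tested.

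The 9 genes and all lists were chosen with earlier results of these data known. Named genes are the 9, Raly, the listed genes at adjusted p under 0.05, 11 further genes fixed with the design, the genes between Raly and Ahcy, and for likeness the most correlated gene. Other genes were named after their values were seen. The lists and counts leave out 2 planned genes, which are not reported here. All 91 pathway symbols, Raly included, were found in GENCODE vM1 on NCBIM37, and exon lengths are unions of annotated exons. Promoter windows are of GRCm38.p6, and no coordinates were converted.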

Additional observations from a re-analysis of the deposited data

How the results depend on the processing

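The log2 fold changes of the 9 genes and Raly were recomputed in 16 alternatives each, 160 in all, of which 148 kept their direction and their side of an adjusted p of 0.05. Gnmt changed sign without L-RalyKO 3 (0.07) and without control 1 (0.0021), over a leave-one-out range of −0.0821 to 0.07, and Bhmt changed sign without L-RalyKO 3 (0.0178; range −0.0699 to 0.0178). Ahcy gained a call with DESeq2 (0.2005) and Cbs without L-RalyKO 1 (range over left-out livers −0.3213 to −0.1524). Bhmt2 lost its call with total count scaling (0.1758), without the intensity trend (0.21) and without 5 of the 6 livers in turn (0.1905 to 0.2334). Of the 77 further genes tested, 24 changed sign in at least 1 of 16 alternatives, none of them with a difference over 0.12 log2 units as reported, among them Csad (−0.16 to 0.44) and Tyms (−0.034 to 0.016). Cdo1 changed sign with total count scaling (−0.0129), without L-RalyKO 1 (−0.0326) and without control 1 (−0.0117; leave-one-out range −0.0326 to 0.0779), and Sardh with total count scaling (−0.008) and without control 3 (−0.0029; leave-one-out range −0.0029 to 0.0643). Total count scaling moved the median of all tested genes to −0.03. The cause of these shifts was not tested.

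The 9 genes held 2 calls with DESeq2, 0 with total count scaling and 0 without the intensity trend, and from 0 to 1 with a liver left out (the 1 without L-RalyKO 1 being Cbs, the 1 without control 3 being Bhmt2). The 77 further genes held 4 calls, and from 3 to 5 in the alternatives. Over all genes, 758 calls became 484 with all genes that had a read, where more genes were tested, and 335 to 812 with a liver left out. Of the calls 51.3% were higher in the analysis as reported and 40.9% with total count scaling. Over all tested genes, same-numbered livers did not deviate together from their group means (r of 0.07, −0.02 and 0.02). A pairing that touches only some genes would not show in this measure. With a replicate block, 704 genes were called, Bhmt2 had an adjusted p of 0.0462 and Amt lost its call (0.063). The control level per kb moved with the length used in Gnmt, Ahcy, Bhmt, Cbs, Cth and Pemt.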

Other observations

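Csad, which encodes an enzyme that makes taurine from cysteine, varied more between livers than between groups. Its values were 180, 150 and 84.2 in L-RalyKO and 133, 163 and 81.6 in control livers, with the replicate numbered 3 lowest in both groups, and the log2 fold change was 0.12 (95% interval −0.57 to 0.81, adjusted p = 0.864, limma), with −0.16 to 0.44 over 16 alternatives. Got1, the cytosolic aspartate aminotransferase, which also accepts cysteine sulfinate, had values of 451, 427 and 397 in L-RalyKO and of 213, 244 and 372 in control livers. The groups did not overlap, and its log2 fold change of 0.66 had an adjusted p of 0.0594 (limma, and from 0.00134 to 0.168 over its alternatives). Suox, which encodes sulfite oxidase, the last step of cysteine breakdown to sulfate, had values of 119, 132 and 114 against 152, 136 and 148, a log2 fold change of −0.26 with an adjusted p of 0.0595 (limma, and from 0.0123 to 0.174 over its alternatives).

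Amd1, which encodes the decarboxylase that turns SAM toward polyamines, was listed at 0 in L-RalyKO 1, control 1 and control 2, and at 9.81, 17.8 and 9.14 in L-RalyKO 2, L-RalyKO 3 and control 3. Of the 31-base words of its transcripts, 94.5% occur elsewhere in the NCBIM37 genome, and Amd2, a near-identical copy, had values between 43.8 and 79.3 in all 6 livers. The sum of both was 61.9, 66.6 and 61.6 in L-RalyKO and 69.7, 56.5 and 88.5 in control livers, which overlapped. The log2 fold change of 1.44 fitted for Amd1 by itself (adjusted p = 0.513, limma) is therefore uncertain.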
